A study of Homo sapiens with 12 samples.

Results

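The mitochondrial ribosomal proteins were followed in K562 cells, a line derived from chronic myeloid leukemia (CML) that carries the BCR-ABL fusion, through 78 genes of the 27348 listed in the RNA-seq table. The members were taken by name, as the symbols made of MRPL or MRPS, a number and at most a letter A, B or C, and 4 other symbols that start the same way (pseudogenes and an antisense gene) were left out. All cells had received the pLKO.1 lentiviral vector and were selected with puromycin. The vector carried sh#1 or sh#2, short hairpin RNAs against the long isoform of PHF19, or was empty (shCT). RNA-seq libraries were made from sh#1, sh#2 and shCT cells, 2 of each, and ChIP-seq libraries from single samples, of which the peak lists of PHF19 in shCT cells, MTF2 in sh#2 cells and MTF2 in shCT cells are described here. The time between selection and harvest of these libraries is not known here.

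Mitochondria translate the few proteins encoded by their own genome, all of them subunits of the respiratory chain and ATP synthase, on a ribosome whose RNAs come from mitochondrial DNA and whose proteins are all encoded in the nucleus and imported. Some of these proteins descend from bacterial ribosomal proteins, and others are found in mitochondrial ribosomes only. The organelle also holds the first and last steps of heme synthesis, which erythroid cells run at a high rate. PHF19 and MTF2 are Polycomb-like proteins that guide the Polycomb repressive complex 2 (PRC2), the enzyme complex that trimethylates lysine 27 of histone H3, to CpG-rich DNA.

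Erythroid genes were abundant in these libraries. The fetal globin genes HBG1 and HBG2 had means of 146039 and 171752 normalized counts, and the erythroid transcription factor GATA1 one of 7043. Granulocyte and B cell genes were near 0 (ELANE 0, MPO 1.43, MS4A1 0), whereas the T cell receptor subunit gene CD3D had 962 and the fibroblast collagen gene COL1A1 68.2. PHF19 and MTF2 had means of 7797 and 2797. Each of these values is the authors' mean over all 6 RNA-seq libraries, so it holds no comparison of PHF19-depleted with shCT cells, and neither the spread between libraries nor their depth is known. The RNA came from whole cultures, so that a low mean from few expressing cells and one from little RNA per cell cannot be told apart.

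The mitochondrial ribosomal protein genes were all detected at moderate to high levels, except MRPS24. Of the 78 genes, 77 had a mean of at least 100 normalized counts. The median over the 78 was 2508 (quartiles 1609 and 3720), and 77.6% of the 13937 other genes with a mean of at least 10 had a lower mean than this. Divided by the length of all exons of the gene, which allows genes to be compared with each other, the median was 937 per kb for the mitochondrial ribosomal proteins (quartiles 532 and 1653), against 165 per kb for 12542 other protein-coding genes. The upper quartile was 3.11 times the lower. Leaving out MRPS24, the highest gene stood 38.1 times above the lowest per kb.

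Along the pathway, the levels stood between those of the proteins that the ribosome serves and those that build it. Per kb, the median was 2088 for 79 nuclear genes of oxidative phosphorylation and 12980 for 83 cytosolic ribosomal protein genes. Both lists were taken by symbol pattern, without a check that each gene encodes a subunit. The first holds ATP5EP2, whose symbol is that of a pseudogene. It was 1402 for 5 mitoribosomal proteins that carry other symbols, among them DAP3, a small subunit protein that binds GTP, with 2070 per kb, and PTCD3, a pentatricopeptide repeat protein, with 790. Lower medians were found for 12 mitochondrial translation factors (535 per kb) and for 24 factors that modify or assemble the mitochondrial ribosome (304 per kb). TUFM, the mitochondrial elongation factor Tu, stood apart from the other translation factors with 5558 per kb, and ERAL1, a chaperone of the small subunit RNA, had 2908.

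Both subunits and both evolutionary classes overlapped widely. The 51 large subunit genes had a median of 1050 per kb (quartiles 614 and 1620), and the 26 small subunit genes one of 727 per kb (quartiles 351 and 1713). The 46 homologs of bacterial proteins had a median of 974 per kb, and the 31 mitochondria-specific proteins one of 765. The lowest median of the 4 combinations was that of the 10 mitochondria-specific small subunit genes, with 508 per kb, but their upper quartile of 1881 was above that of the bacterial homologs of either subunit. Not scaled by length, these 10 genes had the highest median of the 4 combinations, with 3171 normalized counts. The order of the classes was also reversed, with medians of 2334 for the bacterial homologs and 2597 for the mitochondria-specific proteins. MRPS36 was placed in no subunit, since its product is now assigned to the alpha-ketoglutarate dehydrogenase complex and not to the ribosome. Its mean of 1948 normalized counts, or 1250 per kb, was within the quartiles of the 78 genes.

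**Figure D1:**
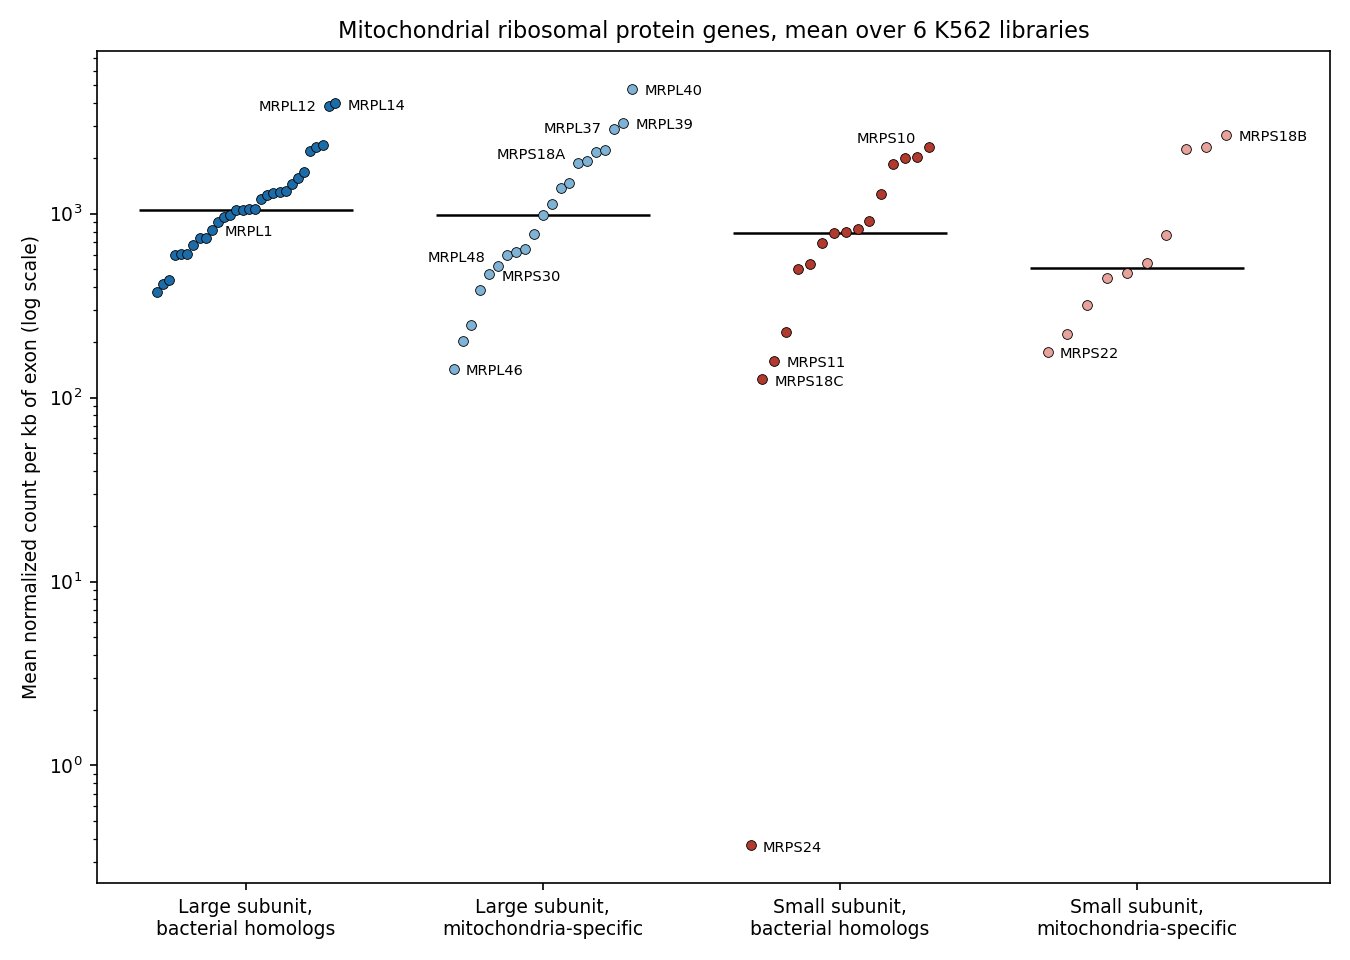
Mean normalized count per kb of exon (log axis) of the 77 genes with a ribosomal subunit, grouped by subunit and class, with each point a gene and each line the group median. The medians lie between 508 and 1054 per kb, the groups overlap, and MRPS24 lies far below all other genes at 0.368.

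With all exons as the length, the 5 genes with the highest level per kb all encode large subunit proteins. MRPL40, a protein of the central protuberance, had 4791 per kb. MRPL14, which lies at the contact between the subunits, had 3983, and MRPL12, the stalk protein that binds translation factors and is present in several copies on each ribosome, had 3830. The mitochondria-specific proteins MRPL39 and MRPL37 had 3110 and 2897. Not scaled by length, the highest means were those of MRPL37 (7383 normalized counts), MRPL3 (6384), a core protein of the large subunit, and MRPL40 (6333). Among the small subunit genes, MRPS18B was highest with 2671 per kb of all exons. These rankings depended on the length used. With the longest transcript alone as its length, the small subunit gene MRPS15 had 6019 per kb. This was above all of the genes named here but MRPL40, which had 8513. MRPS18B had 3357 on that scale.

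At the low end, apart from MRPS24, stood MRPS18C with 126 per kb, MRPL46, another protein of the central protuberance, with 144, MRPS11 with 158 and MRPS22, a mitochondria-specific small subunit protein, with 178. MRPL46 and MRPS11 lie head to head on GRCh37 chromosome 15, at 89002708 to 89010621 and 89010684 to 89024007, with means of 922 and 888 normalized counts. Length entered these values. MRPS22 had a mean of 2911 normalized counts, above the median of the 78 genes, but 16.4 kb of annotated exons, and with the longest transcript alone as its length it had 568 per kb. For MRPL46 the value with the longest transcript was 920 per kb, against 144 with all exons. The median over the 78 genes was 1700 per kb on that scale.

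The MRPS18 paralogs differed in subunit and level. These paralogs all descend from the bacterial protein S18, of which each bacterial ribosome holds a single copy. Only MRPS18C, the member assigned to the bacterial position, is classed here as a bacterial homolog, and the other two as mitochondria-specific. It had the lowest level, with a mean of 611 normalized counts and 126 per kb. MRPS18B, which sits elsewhere in the small subunit, had 4693 normalized counts and 2671 per kb, and MRPS18A, which despite its name belongs to the large subunit, had 2617 and 1889 per kb. Of the exons of MRPS18C, 40.2% overlapped a gene on the other strand. MRPS30, also a large subunit protein despite its symbol, had 2896 normalized counts and 469 per kb of all exons, below the lower quartile of the 78 genes. With the longest transcript alone as its length, MRPS30 had 1757 per kb, above the median of 1700 over the 78 genes. Uniquely placed reads were counted, and 36 of the 78 genes had annotated pseudogenes of the same name (79 in all). Their median was 1153 per kb, against 803 per kb for the 42 genes without one.

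MRPS24, a homolog of a bacterial small subunit protein, was almost absent from the table. Its mean was 0.959 normalized counts, whereas the next lowest, MRPS18C and MRPL53, had 611 and 674. The gene lies on the minus strand of GRCh37 chromosome 7, 43906157 to 43909492. Exons of URGCP-MRPS24, a listed readthrough gene on the same strand, held 81.0% of its longest transcript, and URGCP-MRPS24 had a mean of 0, while URGCP had 860. How reads of shared exons were assigned is not known here. Across the genome, 200 protein-coding genes had at least 80% of the longest transcript in same-strand exons of another listed gene, a threshold chosen after the value of MRPS24 was seen, and 163 of these (81.5%) had a mean under 10, against 33.7% of all 19020 protein-coding genes. MRPL53 was the other mitochondrial ribosomal protein among the 200, with 99.2% of its longest transcript inside exons of CCDC142, yet it had a mean of 674. Whether MRPS24 was unexpressed or uncounted cannot be told apart in this table.

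MTF2 peaks were not found at the promoters of mitochondrial ribosomal proteins. With a promoter taken as 2.5 kb on each side of any annotated transcription start site (TSS), MTF2 peaks of sh#2 cells lay at 0 of the 78 genes, which allows a share of up to 3.85% (3 of the total; the exact binomial 95% interval ends at 4.62%), against 15.6% of all 24279 genes that could be placed on the annotation. MTF2 peaks of shCT cells also lay at 0 of the 78 promoters, against 11.1% of all genes. A closer comparison is with the 5904 other genes whose mean lay in the same range (770 to 6027 normalized counts, the 5th to 95th percentile of the mitochondrial ribosomal proteins). Of these, 3.69% (218 genes) had an MTF2 promoter peak in sh#2 cells and 2.46% (145 genes) in shCT cells. Both shares are below either limit for 0 of 78, so a difference from genes of like level was not detectable with this number of genes. With no MTF2 promoter peak in either list, 0 of the 78 had one in sh#2 and not in shCT cells, against 5.17% of all genes and 1.64% of those of like mean, and 0 had one in shCT and not in sh#2 cells, against 0.680% and 0.407%.

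PHF19 peaks of shCT cells lay at 3 of the 78 promoters, or 3.85% (exact binomial 95% interval 0.800 to 10.8%), against 7.81% of all genes and 5.88% of the genes of like mean. The interval holds both shares. With only peaks at or above the median score of the list, 0 of the 78 remained, against 2.88% of genes of like mean and 4.84% of all genes. Intervals of this kind cover counting error only, and a single ChIP-seq library stands behind each list, so that no peak count has a replicate check. Extended to the whole transcript, the target region held PHF19 peaks for 5 genes (6.41%), against 10.1% of all genes and 7.11% of those of like mean. For MTF2 it held peaks at 1 gene in sh#2 cells (1.28%), against 18.0% and 4.71%, and at 1 gene in shCT cells, against 13.4% and 3.27%. In both lists this gene was MRPL11.

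**Figure D2:**
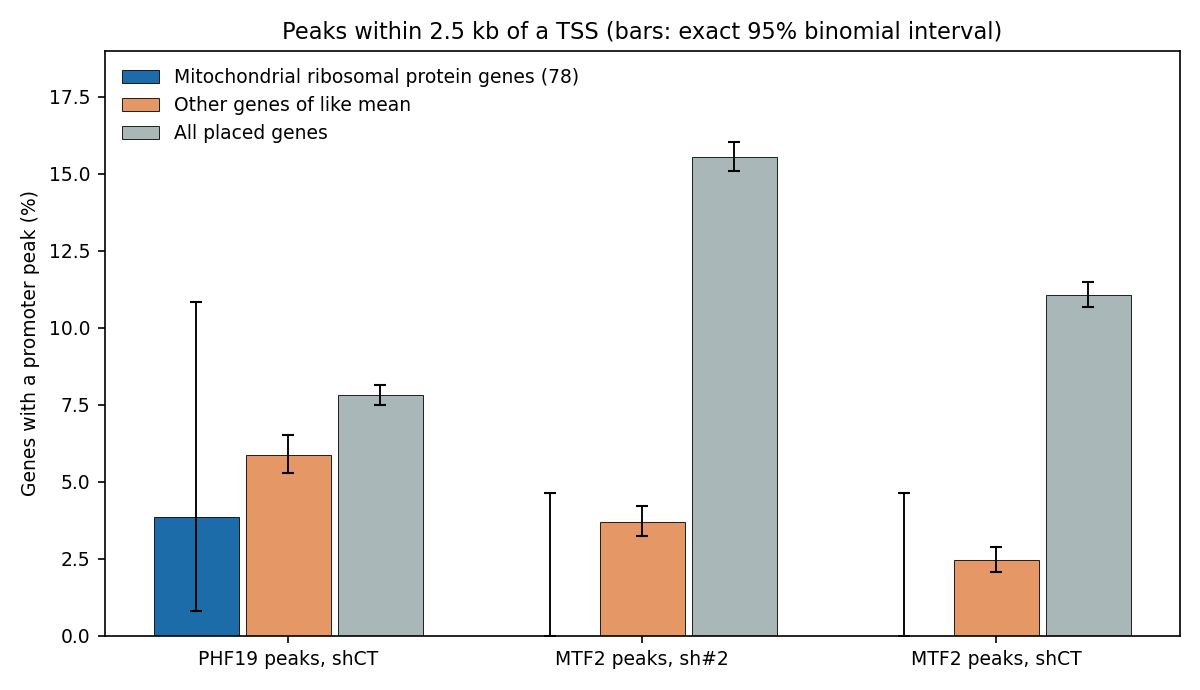
Percent of genes with a peak within 2.5 kb of a TSS for the 3 peak lists, with bars for the 78 mitochondrial ribosomal protein genes, 5904 other genes of like mean and all 24279 placed genes, and lines for exact binomial 95% intervals. The mitochondrial ribosomal proteins have 3.85% for PHF19 and 0% for both MTF2 lists, and in each list the genes of like mean lie below all genes.

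The gap in peak share between all genes and genes of like mean went with the level of expression. When all placed genes with a mean of at least 10 were split into 5 equal groups by their mean, MTF2 promoter peaks in sh#2 cells were found at 25.5% of the lowest group and at 1.78% of the highest. In shCT cells the shares of MTF2 were 19.1% and 1.43%, while those of PHF19 were 13.4% and 5.60%. No mitochondrial ribosomal protein was in the 2 lowest groups, 13 were in the third, 33 in the fourth and 31 in the highest.

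**Figure D3:**
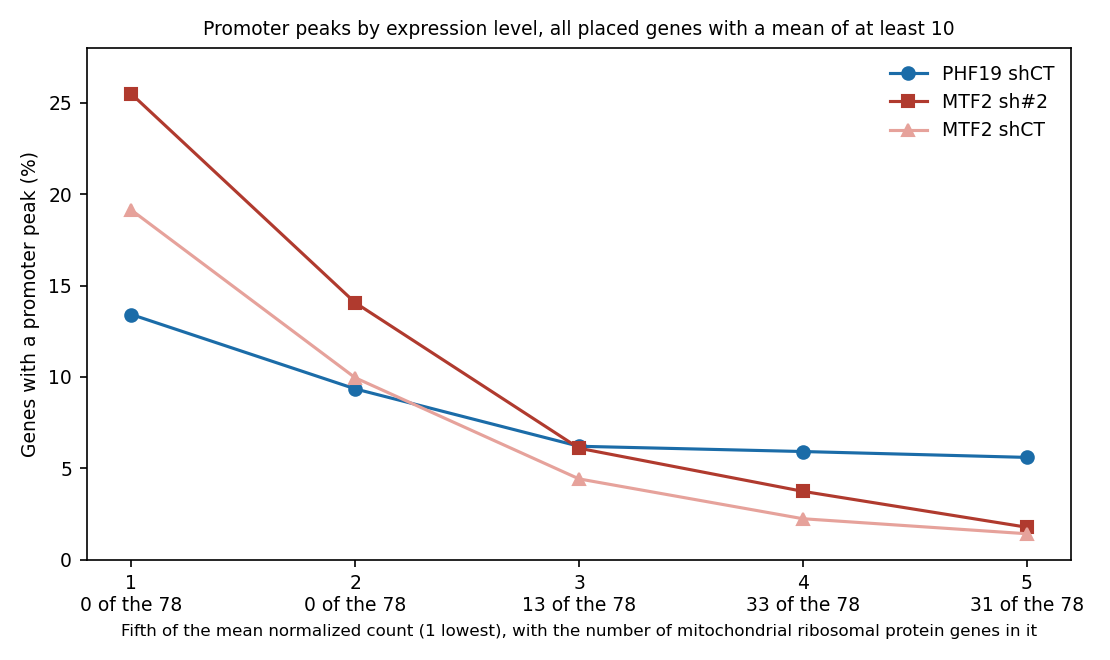
Percent of genes with a promoter peak (vertical axis) in 5 equal groups of genes by mean normalized count (horizontal axis, lowest on the left), with a line for each peak list and the number of mitochondrial ribosomal protein genes under each group. All 3 lines go down with the mean, MTF2 in sh#2 cells from 25.5% to 1.78%, and the mitochondrial ribosomal proteins are all in the 3 highest groups but for MRPS24, which is under the minimum mean.

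The 3 genes with a PHF19 promoter peak were MRPL1, MRPL48 and MRPS10. MRPL1, the protein of the movable L1 stalk beside the site where tRNAs leave, had a peak at GRCh37 chr4:78783407-78784424 with a score of 60.63, rank 3926 of 5621 peaks. MRPL48, a protein of the central protuberance, had one at chr11:73498552-73499447 with a score of 53.64 (rank 4941). MRPS10, a protein of the head of the small subunit, had one at chr6:42184612-42186662 with a score of 53.96 (rank 4876). All scores were below the list's median of 72.28, and none of the peaks overlapped an MTF2 peak of either list. The study kept fewer PHF19 peaks than this list holds, and whether these 3 were among them is not known here. Over all placed genes, 552 of 1897 with a PHF19 promoter peak (29.1%) had no MTF2 promoter peak, and among genes of like mean 245 of 347 (70.6%) had none.

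The promoter sequences of the 3 genes are shown because the peaks cover them whole. They run from 250 bases before the start to 30 after it, 5′ to 3′ on the gene's strand, and come from RefSeq (GRCh38.p14), matched base for base to GRCh37. Capitals mark the letters CCGGAAG, the core that ETS factors bind, or AANATGG followed directly by CGGC, which YY1 binds, on either strand. MRPL1 is at chr4:78783734-78784013 on the plus strand, MRPL48 at chr11:73498669-73498948 on the plus strand and MRPS10 at chr6:42185570-42185849 on the minus strand.
MRPL1: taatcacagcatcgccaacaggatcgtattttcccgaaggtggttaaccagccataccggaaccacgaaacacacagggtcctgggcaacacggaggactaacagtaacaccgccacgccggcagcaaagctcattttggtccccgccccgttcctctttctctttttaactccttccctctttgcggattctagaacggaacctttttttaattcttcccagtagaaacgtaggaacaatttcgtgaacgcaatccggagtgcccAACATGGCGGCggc
MRPL48: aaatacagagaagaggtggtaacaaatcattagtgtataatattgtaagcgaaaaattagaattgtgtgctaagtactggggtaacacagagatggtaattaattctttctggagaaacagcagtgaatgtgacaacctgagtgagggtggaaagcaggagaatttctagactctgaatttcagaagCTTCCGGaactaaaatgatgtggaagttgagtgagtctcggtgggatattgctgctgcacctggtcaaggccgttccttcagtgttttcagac
MRPS10: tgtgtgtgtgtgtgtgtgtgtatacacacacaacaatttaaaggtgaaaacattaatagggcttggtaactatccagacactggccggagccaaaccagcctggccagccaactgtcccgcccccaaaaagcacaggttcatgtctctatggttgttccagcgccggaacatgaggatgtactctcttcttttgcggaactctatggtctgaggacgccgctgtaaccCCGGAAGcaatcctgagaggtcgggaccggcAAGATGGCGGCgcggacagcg
CpG dinucleotides differed among them. The 300-base windows held 20 in MRPL1, 7 in MRPL48 and 17 in MRPS10, all under the median of 24 over the mitochondrial ribosomal proteins, and MRPL48 had the fewest of all members with a sequence.

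The levels of these 3 genes were unlike each other. MRPS10 had 4840 normalized counts and 2305 per kb. With all exons as the length, this was the highest of the small subunit genes classed as bacterial homologs. With the longest transcript, MRPS15 (6019 per kb) and MRPS6 (2432) stood above MRPS10, whose own value stayed at 2305. MRPL1 and MRPL48 had 815 and 517 per kb, below the median of 937. The peak at MRPL1 also lay within 2.5 kb of the TSS of an unnamed gene, ENSG00000250214.

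Peaks farther inside a gene were found at MRPL11 and MRPL33. MRPL11, whose product forms the base of the stalk, had overlapping peaks of all 3 lists 11354, 11033 and 11036 bp from its nearest TSS (PHF19, MTF2 in sh#2 and MTF2 in shCT), in a stretch that 1 of its 6 annotated transcripts spans. These 3 peaks also lay within 2.5 kb of the TSS of another, unnamed gene, ENSG00000254596. The PHF19 peak, at chr11:66221286-66222855, had a score of 87.05 (rank 1997 of 5621). The MTF2 peaks there had a score of 82.8 in sh#2 cells (rank 11881 of 18287) and of 68.29 in shCT cells (rank 8355 of 12502). A further MTF2 peak of sh#2 cells, at chr11:66210250-66211693, lay 3931 bp upstream of another TSS of MRPL11, with a score of 55.62 (rank 16759). It is inside the gene only through a transcript that starts farther upstream. Scores were ranked within their own list, since their scale between libraries is not given. MRPL33 had a PHF19 peak with a score of 58.61, 90736 bp from its nearest TSS.

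Within 10 kb of a TSS, promoter window included, MTF2 peaks of sh#2 cells lay at 3 of the 78 genes, or 3.85% (exact 95% interval 0.800 to 10.8%), against 7.83% of genes of like mean and 20.4% of all genes. Those of shCT cells lay at 2, or 2.56% (0.312 to 8.96%), against 5.39% and 15.0%, and PHF19 peaks at 4, or 5.13% (1.41 to 12.6%), against 9.47% and 11.6%. Each interval holds the share of genes of like mean, so no difference from these was detectable. The median distance to the nearest MTF2 peak was 67.6 kb in sh#2 cells for the mitochondrial ribosomal proteins, against 103 kb for genes of like mean, and in shCT cells 99.4 kb against 137 kb. For PHF19 the medians were 142 and 149 kb. The list of sh#2 cells held more and wider MTF2 peaks (18287 peaks over 63.2 Mb) than that of shCT cells (12502 over 29.05 Mb), and distances in sh#2 cells were shorter for genes of like mean and for all genes as well.

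**Figure D4:**
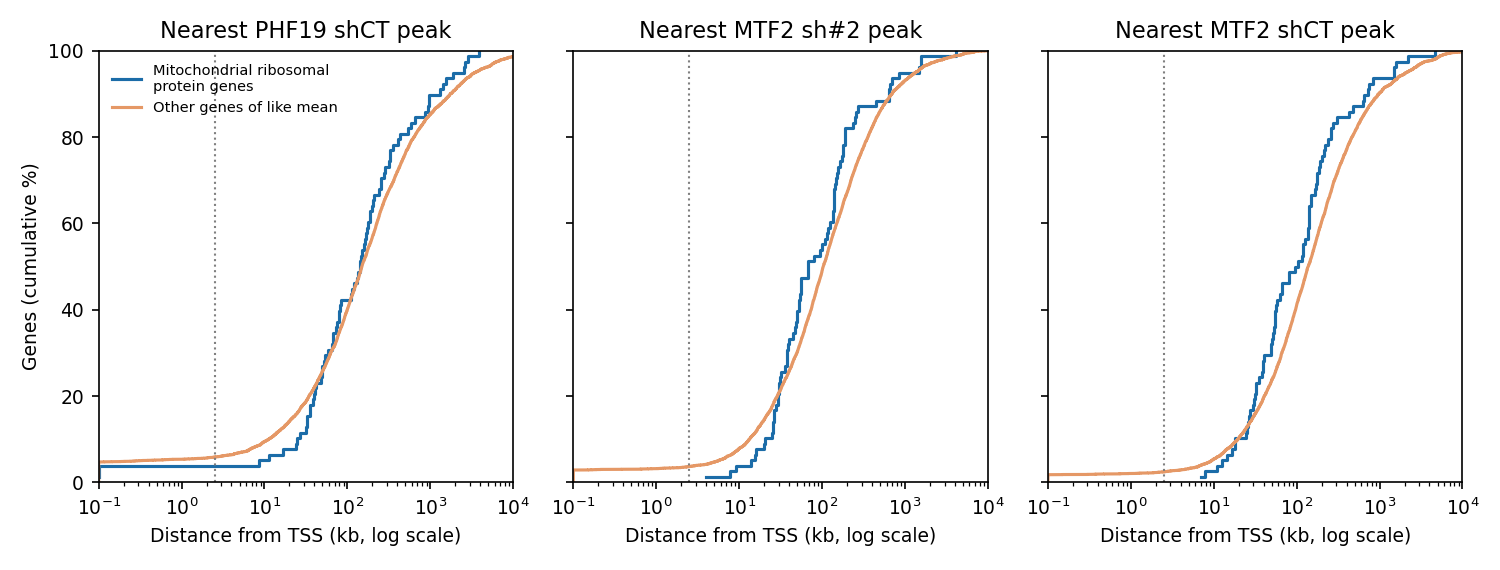
Cumulative percent of genes by distance from the TSS to the nearest peak (kb, log axis) in each of the 3 lists, for the 78 mitochondrial ribosomal protein genes and 5904 other genes of like mean, with a dotted line at 2.5 kb. Both curves for MTF2 start beyond the dotted line for the mitochondrial ribosomal proteins and pass those of the genes of like mean at larger distances, with medians of 67.6 kb against 103 kb in sh#2 cells.

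Promoter sequences of 300 bases (250 before the start and 50 after) were matched for 69 of the 78 genes. They were CpG-rich, with a median of 24 CpG dinucleotides and an observed over expected ratio of 0.879, against 27 and 0.871 for 4870 other protein-coding genes of like mean and 14 and 0.581 for all 27195 promoters. G and C made up 60.3% of the bases at the median, against 65.7% for genes of like mean. By the ratio, the mitochondrial ribosomal proteins and the genes of like mean were almost the same.

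Among 7 motifs searched on both strands, ETS and YY1 letters were more frequent than at genes of like mean. The ETS core CCGGAAG was in 29 of 69 promoters, or 42.0% (exact 95% interval 30.2 to 54.5%), against 23.7% of genes of like mean and 10.7% of all promoters. The YY1 motif, AANATGG followed directly by CGGC, was in 14, or 20.3% (11.6 to 31.7%), against 4.85% and 1.55%. At least 1 of them was in 40 promoters (58.0%), against 27.5% and 11.9%, and 3 held both. The other motifs were near the share of genes of like mean or below it. NRF1, a factor known for its sites in genes of the respiratory chain, has the motif GCGCNTG followed by CGC, which was in 8 promoters (11.6%), against 14.1%. The E-box CACGTG of MYC and its relatives was in 6 (8.70%), against 11.2%, the GC box GGGCGG in 42 (60.9%), against 73.5%, and the TATA letters TATAAA and the erythroid GATA motif AGATAA in 2 each (2.90%), against 4.13% and 4.48%. Motif matches describe letters and not bound factors.

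**Figure D5:**
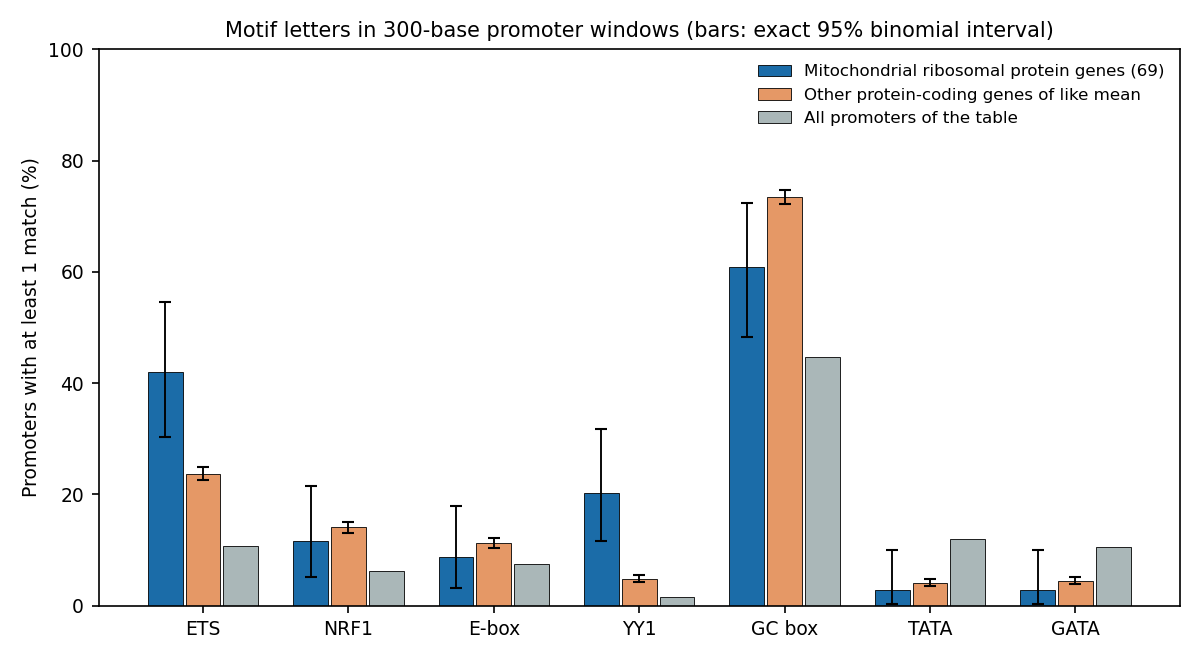
Percent of 300-base promoters with at least 1 match to each of 7 motifs on either strand, for 69 mitochondrial ribosomal protein genes, 4870 other protein-coding genes of like mean and all 27195 promoters, with exact binomial 95% intervals on the first 2 groups. ETS (42.0% against 23.7%) and YY1 (20.3% against 4.85%) stand above the genes of like mean, and the other 5 motifs do not.

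The YY1 matches lay at the start of the coding sequence in all but 1 gene. Of the 14, 13 were on the gene's strand and began after the start, 7 to 36 bases into the transcript, and in all 13 the ATG within the match was the annotated start codon. The motif thus overlapped the first codons in these 13. Start codons were not checked at other genes. Among genes of like mean, 154 of the 236 with a match (65.3%) had it on the gene's strand after the start. Over all promoters this held for 226 of 422 (53.6%). MRPL36 was the exception, with its match on the other strand, 38 bases before the start. ETS matches centered upstream, with a median position of -22 and 27 of 39 within 50 bases of the start. Both motifs, and the check of the start codon, were singled out after their values were seen.

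The 6 YY1 sites at the genes with the highest level per kb among the 14 are shown with 9 bases on each side, 5′ to 3′ on the gene's strand, to let the shared letters (capitals) be read against their different surroundings. Coordinates are on GRCh37.
MRPS18B: gcgtacgtcAAGATGGCGGCgtctgtatt
MRPS10: gggaccggcAAGATGGCGGCgcggacagc
MRPS18A: aggtttttgAAGATGGCGGCcctcaaggc
MRPL9: gtgcctgtgAACATGGCGGCgcccgttgt
MRPS9: cccacagctAACATGGCGGCgccctgtgt
MRPL36: cccccccccGCCGCCATCTTccttcctgg
MRPS18B is at chr6:30585631-30585659 (plus strand), MRPS10 at chr6:42185571-42185599 (minus), MRPS18A at chr6:43655500-43655528 (minus), MRPL9 at chr1:151735939-151735967 (minus), MRPS9 at chr2:105654539-105654567 (plus) and MRPL36 at chr5:1799970-1799998 (minus). The match of MRPL36 reads as the reverse complement. MRPS24, at 0.959 normalized counts, held the motif as well. Genes with an ETS match had a median of 1130 per kb, against 785 per kb for the 40 promoters without one, with quartiles that overlapped (593 to 1857 and 432 to 1514). Not scaled by length, the medians were almost the same, 2503 normalized counts with an ETS match and 2470 without.

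Mitochondrial ribosomal protein genes were scattered over 21 chromosomes and often shared a promoter region with a neighbour. A protein-coding gene on the other strand began head to head within 1 kb at 31 of the 78 genes, or 39.7% (exact 95% interval 28.8 to 51.5%), against 24.8% of 5783 other protein-coding genes of like mean and 16.4% of all 19020. Some of these partners also serve the mitochondrion. MRPL36 lay opposite NDUFS6 and MRPL47 opposite NDUFB5, both subunits of complex I. MRPS12 lay opposite SARS2, the mitochondrial seryl-tRNA synthetase, MRPL43 opposite TWNK, the mitochondrial DNA helicase, and MRPL46 opposite MRPS11. Others have roles elsewhere, such as TCP1, a subunit of the cytosolic chaperonin, beside MRPL18, PSMA2, a proteasome subunit, beside MRPL32, and HIRA, a histone chaperone, beside MRPL40. These pairs were chosen after their positions were seen, for partners of known function.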

How the data were processed

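The authors mapped RNA-seq reads to hg19 with TopHat, kept unique placements, counted RefSeq exons and ran DESeq2. From the deposited table only the mean normalized count over the 6 libraries was used, a score in which the authors divided counts by DESeq2 size factors. Its other columns hold the authors' own comparison of both shRNAs with shCT (fold changes, errors, statistics and p-values) and were not used, so depth, replicate spread and depletion were not assessed. ChIP-seq reads were mapped with Bowtie to hg19 and dm3, and peaks were called with MACS for each library. For PHF19, the authors kept peaks above a minimum of tags. The deposited PHF19 list of 5621 peaks is longer than the set the study describes after that filter, and without tag counts the filter was not applied here. Each deposited peak has coordinates and a score of at least 50. Besides shCT, the header of the PHF19 peaks mentions another hairpin, so the control used in that call is not known. Versions of these tools are not known here. The 3 remaining ChIP-seq libraries (PHF19 in sh#1, PHF19 in sh#2, IgG) were not analysed.

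Genes were placed by symbol and RefSeq synonyms on GENCODE 44 lifted to GRCh37 (24279 of 27348 symbols). A peak was at a promoter if it overlapped 2.5 kb on each side of any TSS by at least 1 bp. Levels per kb use the union of exons. Shares have exact binomial 95% intervals, and a count of 0 allows 3 of the total. Python 3.11.15, numpy 2.4.6, pandas 2.3.3, scipy 1.17.1, pysam 0.24.0, bedtools 2.31.1 and matplotlib 3.10.9 were used. The overlap step was tested on simulated peaks. Subunits and classes follow current ribosome nomenclature. Members and gene lists were chosen with earlier results of these data known. Named genes were members with a promoter peak, the 5 highest and 5 lowest per kb, the 3 highest and 3 lowest by mean, the MRPS18 paralogs and members whose subunit differs from their symbol. Other genes were named after their values were seen. Alternatives were other windows, overlaps, score minimums, TSS choices, lengths and ranges of like mean. The level of 1 erythroid marker is not reported here.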

Additional observations from a re-analysis of the deposited data

How the results depend on the processing

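The mitochondrial ribosomal proteins with an MTF2 promoter peak stayed at 0 in both lists with windows of 1 kb, overlaps of 500 bp, peaks at or above their list's median score and the TSS of the longest transcript, and came to 1 in each with the target region. PHF19 promoter peaks stayed at 3 genes with 1 kb or 500 bp, and came to 2 with the TSS of the longest transcript (4.88% of genes of like mean, 6.30% of all), to 5 with the target region (7.11% and 10.1%) and to 0 with scores at or above the median (2.88% and 4.84%). Genes of like mean taken between the quartiles had MTF2 promoter peaks at 2.76% in sh#2 cells and 1.73% in shCT cells. The percentile of the median mean was 83.9 among all other genes above 0 and 70.7 among those of at least 100. The median per kb was 1700 with the longest transcript. Divergent neighbours came to 28 genes (35.9%) within 500 bp, against 23.5% of genes of like mean and 15.2% of all, and to 23 (29.5%) from the longest transcript, against 15.3% and 9.17%. Among genes that share most of their exons with another on the same strand, 87.8% had a mean under 10 when at least 90% of the union of exons was asked, an alternative chosen after the data were seen, with none of the 78 among them. No paired analysis was possible because no values per library were used, and for the same reason fits with a replicate block, without single libraries or with DESeq2 size factors were not run.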
